A study of Mus musculus with 8 samples.

Results

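This comparison sets the 2 arrays of mouse J1 embryonic stem cells that carried Fbxl19 shRNA2 against the 2 arrays of the same line that carried Fbxl19 shRNA1. The arrays were chosen by their titles and are 4 of the 8 in the series, and all 12394 genes with a probe set of their own were compared. The other arrays are 2 of a control hairpin (shControl) and 2 of cells on day 4 of differentiation. They do not enter the difference. They serve for the estimate of spread, for the choice of each gene's probe set by mean level and, in the case of shControl, as a reference level. All undifferentiated groups were J1 cells grown on gelatin in serum with leukemia inhibitory factor. The labels do not say how the hairpins were delivered, whether a group was a pool or a clone, or whether replicates were separate cultures, and the p-values then cover no more than how these arrays varied, perhaps for technical reasons alone. The description field of the 4 hairpin arrays counts on from Fbxl19 to Fbxl20, Fbxl21 and Fbxl22, whereas all their titles name Fbxl19, which was taken as the target.

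A short hairpin RNA is transcribed in the cell and cut by Dicer to a small RNA that guides an Argonaute protein to transcripts with a matching sequence. Hairpins against a shared target differ in sequence, and so in the other transcripts that they can match in part, which is why knockdown studies use more than 1 hairpin. The Fbxl19 protein joins an F-box, which docks on a ubiquitin ligase, to a CXXC finger that recognizes CpG DNA free of methylation, and the study links it to the ubiquitin ligase Rnf20 and to ubiquitination of histone H2B. The comparison asks where the expression profiles of the hairpins part. Fbxl19 itself had no annotated probe set, and how far either hairpin lowered it was not measured here. The hairpin sequences were not analysed here.

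The difference between the hairpins was small for most genes. Its SD across genes was 0.21 on the log2 scale, where the difference between replicates had an SD of 0.20 for shRNA1 and 0.22 for shRNA2. From those replicate differences alone, a difference between means of 2 arrays would have an SD of 0.15. At least 2-fold differences were seen for 31 genes, 14 higher and 17 lower with shRNA2, or 0.250% of the genes tested. At least 1.5-fold differences were seen for 236 genes (1.90%). The actin control probe sets, whose 3'-to-5' difference reads RNA quality, gave 0.71 and 0.70 with shRNA1 and 0.73 and 0.76 with shRNA2, so the groups did not overlap. Those of Gapdh gave 0.23 and 0.18 with shRNA1 and 0.27 and 0.20 with shRNA2, and overlapped. The part of RNA quality in the differences was not tested.

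Between the hairpins, 4 genes were called higher and 9 lower with shRNA2, or 0.105% of the genes tested (0.0323% higher and 0.0726% lower). The count rested on few arrays. It was 4 without either shControl array, 2 without shRNA1 replicate 1, 3 without shRNA1 replicate 2, 2 if an shRNA2 array was left out and 37 if an array of day 4 was. With only the 4 hairpin arrays in the fit 9 genes were called, 6 of them among the 13. Without adjustment, limma p was under 0.05 for 335 genes higher (2.70%) and 303 lower (2.44%). Together these were 638 genes (5.15%), a count close to what this threshold passes when no gene differs. That count moved too, from 353 to 446 when 1 hairpin array was left out, to 982 without either day 4 array, to 1600 with the hairpin arrays alone and to 1625 with array weights, and the list counts given further on rest on this threshold. The arrays of the hairpins did not overlap for 43.6% of genes, with shRNA2 above in 21.9% and below in 21.7%.

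**Figure D1:**
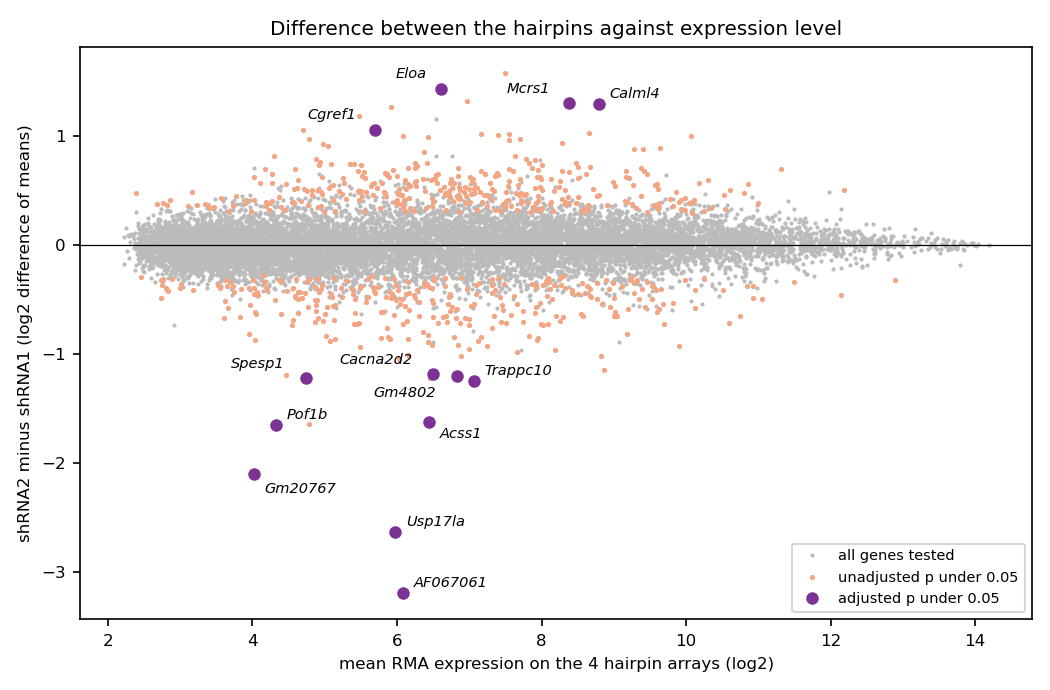
Difference between the means of the 2 shRNA2 and the 2 shRNA1 arrays (log2, vertical) against the mean level on the 4 hairpin arrays (log2, horizontal), with 1 point per gene. The 638 genes at an unadjusted p under 0.05 are orange and the 13 called genes are purple and named, and the lowest of the latter, AF067061, lies at -3.20.

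The largest differences were those of AF067061 and Usp17la, which were lower with shRNA2. AF067061, a gene on chromosome 13 that lies between Gm20767 and Tcstv3, read 7.86 and 7.51 on the shRNA1 arrays, 4.62 and 4.35 on the shRNA2 arrays and 4.53 and 4.39 on the shControl arrays (RMA log2 levels). Only the shRNA1 arrays stood apart, and the shRNA2 and shControl arrays overlapped. The difference was -3.20 ± 0.16 (log2, SE, 2 against 2 arrays; limma adjusted p = 0.000187), or 9.16-fold. Its probe set is of the type marked _x_at by the manufacturer, which may also read related transcripts. Usp17la, which encodes a deubiquitinase of a multi-copy family on chromosome 7, read 7.59 and 7.01 with shRNA1, 4.67 and 4.66 with shRNA2, and 3.61 and 3.36 in shControl. Here the shRNA2 arrays lay between the others. The difference was -2.64 ± 0.20 (adjusted p = 0.00219), or 6.21-fold, and its probes may read near-identical copies as well. These were the genes called under every alternative tried, 19 of 19 for each. The 19 were not all separate fits. Leaving out either day 4 array gave the same fit as the 6 undifferentiated arrays, and leaving out either shControl array gave the same fit.

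Gm20767, a predicted gene named after its values were seen, neighbours AF067061 and was also lower with shRNA2. It read 5.45 and 4.71 with shRNA1 and 2.89 and 3.05 with shRNA2, a difference of -2.11 ± 0.22 (adjusted p = 0.0183). Its shRNA2 and shControl means, 2.97 and 2.62, lay below 3.79, the lowest lower quartile of an array. Such genes are here called dim, and their fold is left out because the files hold no measure of background. Tcstv1, which lies further along, was dim on all hairpin arrays, with a difference of -0.31 ± 0.16 (adjusted p = 1.0).

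Acss1 and Cacna2d2, genes of metabolism and of the cell surface, were lower with shRNA2. Acss1 encodes the mitochondrial acetyl-CoA synthetase. It read 7.17 and 7.34 with shRNA1, 5.56 and 5.70 with shRNA2 and 5.67 and 6.11 in shControl, and the difference was -1.62 ± 0.18 (adjusted p = 0.0183), or 3.08-fold. Its other probe sets gave -0.33 and -0.38 at mean levels of 2.55 and 3.29, and the mean of all its probe sets, -0.78, was not called. Cacna2d2, an auxiliary subunit of voltage-gated calcium channels, read 6.99 and 7.18 with shRNA1, 5.79 and 6.01 with shRNA2 and 5.72 and 5.79 in shControl. Its difference was -1.19 ± 0.15 (adjusted p = 0.0355). Its other probe sets, at mean levels of 3.29 and 3.33, gave -0.04 and 0.05, and the mean of its probe sets was -0.39 and not called. In both genes only the shRNA1 arrays stood away from shControl.

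A gene of epithelial junctions and a gene of sperm were also among those lower with shRNA2. Pof1b, which encodes an actin-binding protein of epithelial junctions, read 5.25 and 5.07 with shRNA1 and 3.33 and 3.67 with shRNA2, a difference of -1.66 ± 0.17 (adjusted p = 0.0183) to a dim mean of 3.50. Spesp1, a protein of the sperm equatorial segment, read 5.33 and 5.37 with shRNA1 and 4.11 and 4.14 with shRNA2, and differed by -1.22 ± 0.15 (adjusted p = 0.0254), or 2.33-fold. The dim second probe set of Spesp1 gave 0.03, and the mean of both was -0.59 and not called. Gm4802, a predicted gene named after its values were seen, read 7.32 and 7.53 with shRNA1, 6.11 and 6.33 with shRNA2 and 6.19 and 6.26 in shControl, and differed by -1.21 ± 0.16 (adjusted p = 0.0369). For these 3 genes, as for Acss1, the shRNA2 mean lay nearer to the shControl mean than the shRNA1 mean did.

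Trappc10 had another pattern. It encodes a subunit of a TRAPP complex, which tethers vesicles in transport through the Golgi. It read 7.57 and 7.82 with shRNA1, 6.35 and 6.53 with shRNA2 and 7.36 and 7.51 in shControl, so the shRNA2 arrays lay below all others. The difference was -1.25 ± 0.17 (adjusted p = 0.0399), or 2.38-fold. It was called under 8 of the 19 alternatives, the fewest of the 13 genes.

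Among the 4 genes higher with shRNA2, Mcrs1 and Eloa encode proteins of the transcription and chromatin machinery. Mcrs1, a subunit of the NSL and INO80 chromatin complexes, read 7.79 and 7.69 with shRNA1, 9.05 and 9.02 with shRNA2 and 8.96 and 9.23 in shControl. The shRNA1 arrays were below all others, by 2.45-fold against shRNA2 (1.29 ± 0.14, adjusted p = 0.0183). Eloa, the elongin A gene, read 5.71 and 6.09 with shRNA1, 7.44 and 7.22 with shRNA2 and 7.32 and 7.34 in shControl. It differed by 1.43 ± 0.16 (adjusted p = 0.0226), or 2.69-fold. Its other probe sets gave 0.55 and 0.22, and the mean of its probe sets, 0.73, was not called.

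The remaining genes higher with shRNA2 encode proteins with calcium-binding EF-hands or calmodulin-like folds. Calml4 read 8.20 and 8.12 with shRNA1, 9.50 and 9.39 with shRNA2, and 8.54 and 8.83 in shControl, which lay between the hairpins. Its difference was 1.29 ± 0.17 (adjusted p = 0.0355), or 2.45-fold. Cgref1, a cell growth regulator, read 5.19 and 5.13 with shRNA1, 6.28 and 6.15 with shRNA2 and 5.26 and 5.43 in shControl, and differed by 1.05 ± 0.13 (adjusted p = 0.0338), or 2.08-fold. Its other probe set gave 0.92. In Cgref1, as in Trappc10, it was the shRNA2 arrays that stood away from shControl.

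**Figure D2:**
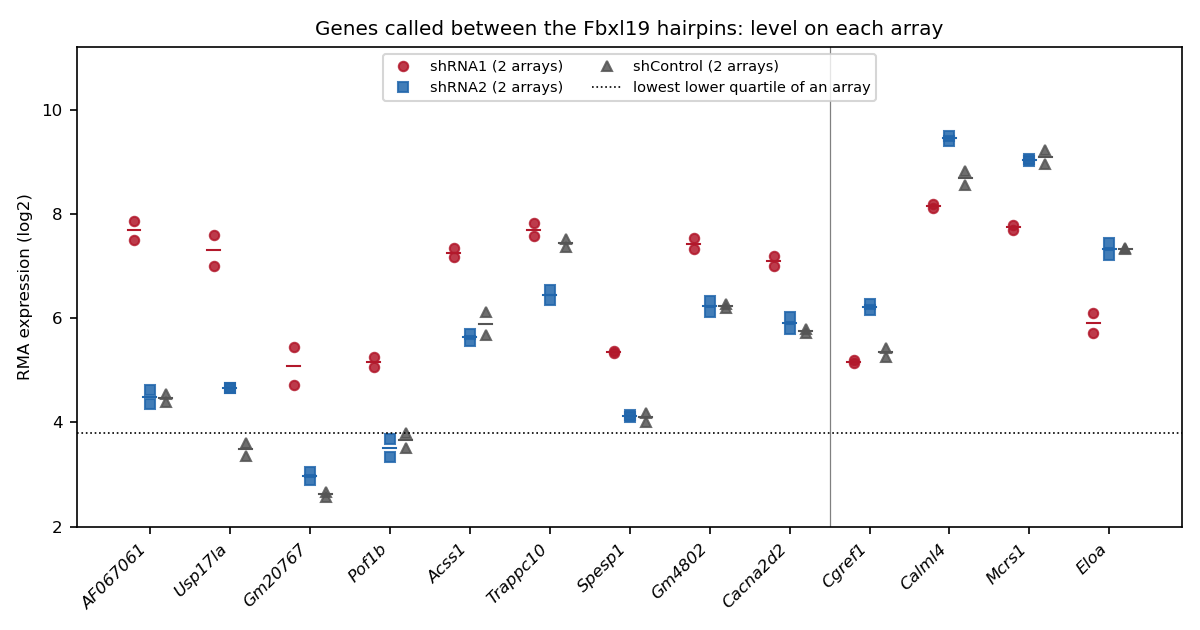
RMA level (log2) on each array of shRNA1 (red circles), shRNA2 (blue squares) and shControl (grey triangles) for the 13 called genes, with short bars at the group means and a dotted line at 3.79, the lowest lower quartile of an array. Genes left of the vertical line were lower with shRNA2, and the shControl mean lies nearer to that of shRNA2 in 10 of the 13, the exceptions being Trappc10, Cgref1 and Calml4.

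The shControl mean was nearer to the shRNA2 mean than to the shRNA1 mean for 10 of the 13 called genes. This was so for 461 of the 638 genes at an unadjusted p under 0.05 (72.3%), and for 7256 of all 12394 genes (58.5%). These counts rest on the same 2 shControl arrays and are a description.

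Because the CXXC finger of Fbxl19 binds CpG DNA, the CG dinucleotides of the promoters were counted. The promoters of the called genes with the 2 largest differences in each direction are shown, as 250 bases before to 50 bases after the start in RefSeq (GRCm38.p6), with each CG in capitals. They are AF067061 (chr13:120262845-120263144, + strand), Usp17la (chr7:104856766-104857065, + strand), Eloa (chr4:136021600-136021899, - strand) and Mcrs1 (chr15:99251912-99252211, - strand).
AF067061: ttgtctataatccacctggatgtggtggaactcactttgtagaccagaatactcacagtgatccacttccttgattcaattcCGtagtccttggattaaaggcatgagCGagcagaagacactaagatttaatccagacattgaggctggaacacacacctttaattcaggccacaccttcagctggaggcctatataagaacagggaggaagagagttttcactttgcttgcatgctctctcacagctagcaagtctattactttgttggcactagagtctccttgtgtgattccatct
Usp17la: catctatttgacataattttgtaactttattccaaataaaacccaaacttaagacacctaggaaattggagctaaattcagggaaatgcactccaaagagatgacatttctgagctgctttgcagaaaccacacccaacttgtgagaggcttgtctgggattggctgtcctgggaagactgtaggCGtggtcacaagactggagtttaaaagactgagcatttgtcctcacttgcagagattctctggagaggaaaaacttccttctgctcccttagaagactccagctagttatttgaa
Eloa: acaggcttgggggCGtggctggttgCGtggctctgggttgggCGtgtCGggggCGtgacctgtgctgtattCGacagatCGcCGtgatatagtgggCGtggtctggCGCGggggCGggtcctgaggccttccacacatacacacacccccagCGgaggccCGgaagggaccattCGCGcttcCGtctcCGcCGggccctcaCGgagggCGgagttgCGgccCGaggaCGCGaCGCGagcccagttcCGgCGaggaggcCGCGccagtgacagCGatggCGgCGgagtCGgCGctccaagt
Mcrs1: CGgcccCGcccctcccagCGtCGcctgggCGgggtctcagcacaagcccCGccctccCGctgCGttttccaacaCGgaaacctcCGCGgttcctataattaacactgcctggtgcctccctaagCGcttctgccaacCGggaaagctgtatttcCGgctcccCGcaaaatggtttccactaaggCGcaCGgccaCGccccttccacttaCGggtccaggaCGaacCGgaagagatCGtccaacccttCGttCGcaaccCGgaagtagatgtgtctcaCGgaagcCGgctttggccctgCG
The windows of AF067061 and Usp17la held 2 and 1 CG, and those of Eloa and Mcrs1 held 36 and 28. CG reads the same on both strands. Among 9888 tested genes with a window in that table, taking the window with the most CG, the median was 19, and 98.4% held at least 1. Of those genes, 7.53% had at most the count of AF067061 and 4.33% at most that of Usp17la. Not all genes lower with shRNA2 had few CG, since Trappc10 held 38, Cacna2d2 43 and Acss1 23, while Pof1b held 4 and Gm4802 held 3. Nor were the higher genes uniform, since Calml4 held 8. At least 10 CG were held by 74.2% of the tested genes, by 84.5% of the 278 with a window that were higher at an unadjusted p under 0.05, and by 72.4% of the 232 that were lower. These shares are descriptions and say nothing of binding.

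Below the threshold, the genes with the next smallest p gave similar patterns. None of the 16 passed, with adjusted p from 0.0592 to 0.179. On the higher side with shRNA2, Nup210, a nuclear pore gene, read 5.27 and 5.29 with shRNA1, 6.59 and 6.49 with shRNA2 and 6.61 and 6.97 in shControl (1.26 ± 0.18, adjusted p = 0.0600). Xpo7, a nuclear export receptor, read 9.16 and 9.24 with shRNA1, 10.10 and 10.08 with shRNA2 and 10.11 and 10.18 in shControl (0.89 ± 0.13), and its other probe set gave 0.99. In both genes the shRNA1 arrays were the low ones. Nsmaf, an adaptor of neutral sphingomyelinase, had 0.97 ± 0.14, and Cpe, carboxypeptidase E, had 1.32 ± 0.21 (mean of its probe sets 0.72). Plac8 had 1.02 ± 0.17, and Phlda2, an imprinted gene that restrains placental growth, had 1.00 ± 0.17. The iron-sulfur cluster gene Isca1 had 0.88 ± 0.15 and Txnrd3, a thioredoxin reductase, had 0.99 ± 0.18, and their other probe sets gave 0.45 for Isca1 and 0.35 and 0.39 for Txnrd3.

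On the lower side, the mitochondrial arginase gene Arg2 read 5.76 and 5.46 with shRNA1, 4.15 and 3.78 with shRNA2 and 3.78 and 3.95 in shControl (-1.64 ± 0.24, adjusted p = 0.0600). Zfp352, a zinc finger gene of the two-cell embryo, read 5.25 and 4.87 with shRNA1, 3.73 and 3.99 with shRNA2 and 3.79 and 3.59 in shControl (-1.20 ± 0.18, adjusted p = 0.0600). The shRNA2 and shControl arrays overlapped in both genes. Oxsr1, a kinase that acts downstream of WNK kinases, read 8.62 and 8.73 with shRNA1, 7.62 and 7.80 with shRNA2 and 8.67 and 8.93 in shControl (-0.96 ± 0.14). Enoph1, an enzyme of methionine salvage, read 10.39 and 10.34 with shRNA1, 9.36 and 9.50 with shRNA2 and 10.60 and 10.23 in shControl (-0.93 ± 0.16). In these the shRNA2 arrays were the low ones, and they were the 2 of the 16 in which shControl was nearer to shRNA1. The syntaxin gene Stx3 had -1.03 ± 0.16, and Mep1b, a subunit of the metalloprotease meprin, had -1.05 ± 0.16. Mgmt, which repairs alkylated guanine, had -0.76 ± 0.13, and Porcn, the acyltransferase that modifies Wnt ligands, had -0.85 ± 0.15.

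**Figure D3:**
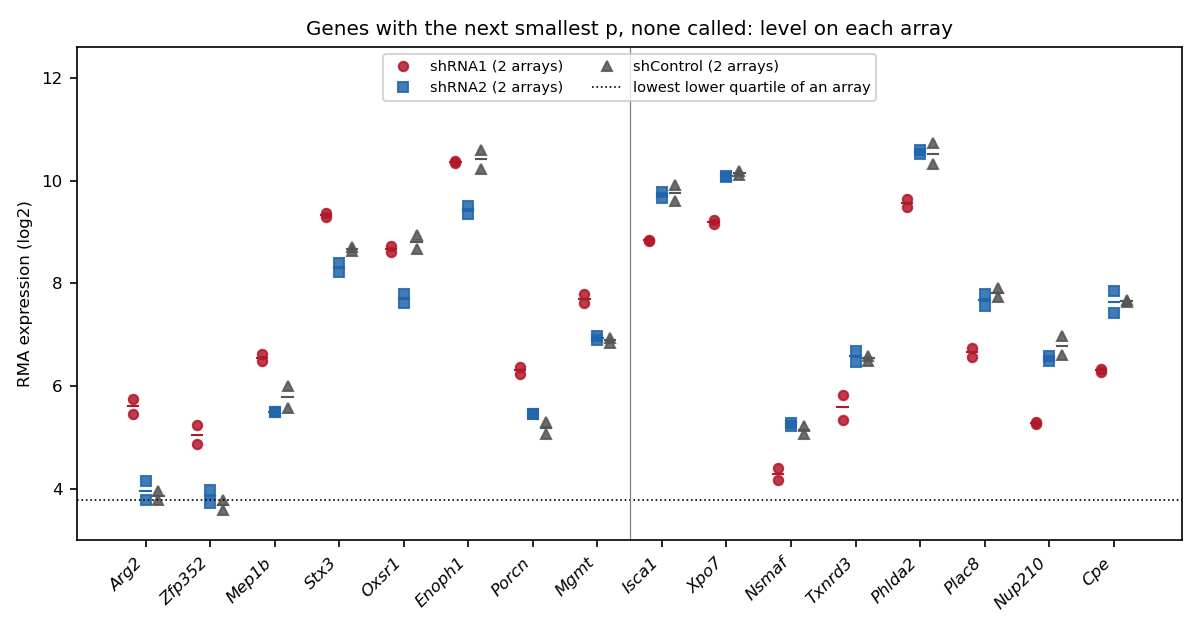
RMA level (log2) on each array for the 16 genes with the next smallest p, none of which was called, with symbols, group means and dotted line as for the called genes. Genes left of the vertical line had lower shRNA2 means. The grey shControl triangles lie with the blue shRNA2 squares for most genes and with the red shRNA1 circles for Oxsr1 and Enoph1.

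Of the 31 genes that differed at least 2-fold, 18 were not called, and some of them varied between replicates. The neurofilament gene Nefh had the largest difference upward, 1.57 ± 0.49 (adjusted p = 0.585), with 6.61 and 6.80 with shRNA1, 8.30 and 8.25 with shRNA2 and 7.71 and 8.03 in shControl. Its hairpin arrays lay close together within each group, and the SE also carries the spread of the other groups. Nefh was called with the 4 hairpin arrays alone, with the 6 undifferentiated arrays and with array weights. Mbnl3, a splicing regulator, had 1.18 ± 0.27 and was called under 0 of the 19 alternatives. Tacc3, a spindle protein, had 1.02 ± 0.20 (mean of its probe sets 0.58). Hopx, a homeodomain-only protein gene, read 9.42 and 9.45 with shRNA1 and 8.32 and 8.25 with shRNA2 (-1.15 ± 0.22). It was called under the same alternatives as Nefh. The kinase gene Uhmk1 had -1.22 ± 0.26 (mean of its probe sets -0.58) and the meiotic cohesin gene Stag3 had -1.01 ± 0.21. The adjusted p of these 5 genes lay between 0.194 and 0.290. These 6 genes were named after their values were seen.

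The share of genes at an unadjusted p under 0.05 depended on the level. With the genes cut into 4 equal groups by their mean on the hairpin arrays, it was 1.94% in the lowest, 6.78% and 7.78% in the middle groups and 4.10% in the highest. By chromosome, the median difference lay between -0.018 (chromosome 6) and 0.015 (chromosome 4), leaving out chromosomes with fewer than 20 genes. Chromosome 13, which holds AF067061 and Gm20767, had the highest share at an unadjusted p under 0.05, with 34 of 459 genes (7.41%). Chromosomes 16 and X followed with 6.52% and 6.22%, and the lowest share was 3.81% on chromosome 3. These shares were not tested.

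Described by gene list, the differences were mostly near 0. Over all genes the median difference was 0.00 and 50.0% of genes lay above 0, and of 25 lists the medians ran from -0.31 to 0.24. The lists were not tested, and the counts below are of genes at an unadjusted p under 0.05 unless called. The lowest median, -0.31, was that of genes of the two-cell stage embryo, which a small share of stem cells in culture express, with 8 measured of 29 listed. Of these, 7 lay below 0 and 3 were lower at that p, namely Usp17la, which was called, Arg2 and Zfp352. The array medians of the list, relative to the mean of the 4 hairpin arrays, were 0.15 and 0.25 with shRNA1, -0.21 and -0.24 with shRNA2 and -0.40 and -0.42 in shControl. Both hairpins thus lay above shControl in these medians, and shRNA1 further. Of the 8 genes, 4 were below 3.79 on all hairpin arrays. Leaving out the dimmest 30% of genes by mean over all arrays of the series also removed Arg2 and Zfp352. The median was then -1.31, but it rested on Usp17la (-2.64) and Sp110 (0.02) alone.

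The 10 subunits of the TRAPP complexes had a median of -0.14, with 9 below 0. Trappc10 alone was called or reached the unadjusted threshold. Trappc6a had -0.38 ± 0.21 and Trappc13 had -0.31 ± 0.24. The array medians were 0.08 and 0.06 with shRNA1 and -0.05 and -0.08 with shRNA2, while shControl spanned the range with -0.10 and 0.09.

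Targets of p53, the transcription factor of the DNA damage response, had a median of 0.15 over 24 genes, 16 above 0. At the unadjusted threshold 3 were higher and 2 lower with shRNA2, so the list was split. Pmaip1, the gene of the cell death protein Noxa, read 7.95 and 8.37 with shRNA1, 7.13 and 7.22 with shRNA2 and 6.46 and 6.50 in shControl (-0.99 ± 0.19, adjusted p = 0.207). The anti-proliferative gene Btg2 ran the other way, with 8.34 and 8.25, 9.04 and 8.85, and 7.57 and 7.78 (0.65 ± 0.14, adjusted p = 0.239). Both hairpins were above shControl in each gene, shRNA1 further in Pmaip1 and shRNA2 further in Btg2. Bbc3, which encodes Puma, had 0.62 ± 0.15. Gadd45a, a growth arrest gene, had -0.43 ± 0.24 and did not reach that threshold. The other lower gene that did was Ei24, with -0.32 ± 0.12. The other higher gene was Fas, with 0.41 ± 0.16 and dim with both hairpins.

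Genes of the FGF and ERK response had a median of 0.15 over 21 genes, 16 above 0, with 4 higher and 0 lower at the unadjusted threshold. The ligand gene Fgf18 read 4.73 and 4.29 with shRNA1, 5.71 and 5.16 with shRNA2 and 6.70 and 6.82 in shControl (0.92 ± 0.26, adjusted p = 0.490). Both hairpins were below shControl, shRNA1 further. Dusp6, the ERK phosphatase, had 0.42 ± 0.14, and Fgf18 and Dusp6 both reached that threshold. The transcription factor gene Etv4 (0.43 ± 0.22) and the immediate early gene Egr1 (0.63 ± 0.33) did not. The others that did were Fosl1, with 0.41 ± 0.15, and Egr2, with 0.35 ± 0.15 and dim with both hairpins. The array medians were -0.07 and -0.12 with shRNA1, 0.14 and 0.06 with shRNA2, and 0.07 and -0.01 in shControl.

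Of the lipid genes, those of cholesterol biosynthesis had a median of 0.16 over 19 genes, 16 above 0, with 2 higher and 0 lower. These were Idi1, the isopentenyl diphosphate isomerase, with 0.57 ± 0.19, and the synthase gene Hmgcs1, with 0.38 ± 0.13 (adjusted p = 0.677 for both). Mvd had 0.35 ± 0.17 and Ebp, a sterol isomerase, -0.37 ± 0.22. The array medians were -0.07 and -0.13 with shRNA1, 0.15 and 0.04 with shRNA2 and 0.19 and 0.18 in shControl, so shRNA1 held the lowest. For 18 genes of acetyl-CoA and fatty acid synthesis the median was 0.04. Acss1 was called lower, and the desaturase gene Fads1 and the acetyl-CoA carboxylase gene Acacb were higher at the unadjusted threshold, with 0.47 ± 0.15 and 0.46 ± 0.17. Fads2 had 0.48 ± 0.22.

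The medians of the stress and glycolysis lists overlapped between the hairpins. The integrated stress response, a program of amino acid and translation genes under Atf4, had the highest median, 0.24 over 26 genes, 21 above 0 and 1 higher at the unadjusted threshold. The median was 0.069 without shRNA2 replicate 2 and 0.16 without shRNA1 replicate 1, in both cases below those of the p53 and cholesterol lists (0.21 for both lists in the former case, 0.19 and 0.21 in the latter). Its array medians were -0.14 and -0.02 with shRNA1, -0.05 and 0.23 with shRNA2 and 0.02 and 0.24 in shControl. In each group the array named replicate 2 was the higher. Nupr1 had 1.15 ± 1.01 and Mthfd2, a mitochondrial folate enzyme, 0.62 ± 0.40 (adjusted p = 1.0 for both). For 29 genes of glycolysis and hypoxia the median was 0.06, and the array medians were -0.26 and 0.28 with shRNA1 and -0.24 and 0.25 with shRNA2. Ndrg1, a gene induced by hypoxia, read 7.32 and 9.07 with shRNA1 and 6.07 and 8.39 with shRNA2 (-0.96 ± 0.76), and its difference ran from -2.12 to 0.20 when single arrays were left out. Pfkm, a phosphofructokinase gene, was the list's member at the unadjusted threshold, with -0.37 ± 0.14. Mitosis genes had a median of 0.10 over 17 genes, none at that threshold, with array medians of -0.11 and 0.04 for shRNA1 and -0.06 and 0.13 for shRNA2.

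Genes around Fbxl19 itself gave few differences. Of the Fbxl family and the core of its ubiquitin ligase complex, 10 genes were measured, with a median of 0.00, 2 higher and 0 lower. Skp2, the F-box protein that targets the inhibitor p27, read 8.98 and 8.93 with shRNA1, 9.88 and 9.80 with shRNA2 and 10.07 and 9.71 in shControl (0.88 ± 0.22, adjusted p = 0.388), so its shRNA1 arrays were the low ones. Fbxl12 had 0.46 ± 0.18. Fbxl20, named in the description of shRNA1 replicate 2, read 6.53 and 6.73 with shRNA1, 6.50 and 6.64 with shRNA2 and 6.64 and 6.49 in shControl. The array of that label was not low, and the difference was -0.06 ± 0.14, turning to 0.044 and 0.012 when shRNA1 replicate 2 or shRNA2 replicate 1 was left out. Fbxl21 and Fbxl22, named in the descriptions of the shRNA2 arrays, were not among the genes tested.

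The H2B ubiquitination machinery had a median of -0.02 over 13 genes, with 1 higher and 1 lower at the unadjusted threshold. The deubiquitinase genes Usp22, of the SAGA complex, and Usp7 had 0.48 ± 0.17 and -0.49 ± 0.15 (adjusted p = 0.750 and 0.543). Rnf20, named because the series title does, read 7.41 and 7.74 with shRNA1 and 7.49 and 7.71 with shRNA2, with a difference of 0.03 and a 95% interval of -0.46 to 0.52. CXXC proteins and enzymes of H3K4 and H3K79 methylation had a median of 0.09 over 14 genes, with 0 at the unadjusted threshold. The largest differences were those of the DNA demethylase Tet1 (0.38 ± 0.22) and the maintenance methyltransferase Dnmt1 (0.35 ± 0.23). Transcription elongation genes had a median of 0.05 over 21 genes. Eloa was called, the elongation factor gene Ell had 0.59 ± 0.12 (adjusted p = 0.221), and Ell2 and Aff1, of the super elongation complex, had -0.55 ± 0.22 and -0.35 ± 0.14. For the NSL and INO80 complexes the median was 0.06 over 18 genes, and Mcrs1 was the member called and the one at the unadjusted threshold. The next by size, Phf20, had 0.22 ± 0.13.

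Genes that process or sense the hairpins as RNA were also near 0. The small RNA machinery, which includes Dicer and the Argonautes, had a median of 0.04 over 14 genes, with Adar, an RNA editing enzyme, higher at the unadjusted threshold (0.42 ± 0.13, adjusted p = 0.587). The interferon and double-stranded RNA response had a median of 0.07 over 25 genes, of which Ifit2, with 0.78 ± 0.33 (adjusted p = 0.934), was higher and none lower at that threshold. The array medians of that list were -0.06 and 0.06 with shRNA1 and 0.01 and -0.01 with shRNA2.

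The defining genes of pluripotent cells read between 11.55 and 12.49 on the hairpin arrays. Pou5f1 read 12.41 and 12.44 with shRNA1 and 12.42 and 12.49 with shRNA2, Nanog 11.55 and 11.70 against 11.58 and 11.68, and Sox2 12.09 and 12.19 against 11.98 and 12.31. Each overlapped between the hairpins. The pluripotency list had a median of -0.08 over 28 genes, 1 lower at the unadjusted threshold. That was Otx2, a regulator of the exit from the naive state, with 9.38 and 9.81 with shRNA1, 8.63 and 8.92 with shRNA2 and 8.17 and 8.26 in shControl (-0.82 ± 0.18, adjusted p = 0.239). Both hairpins were above shControl, shRNA1 further. Dppa3 had -0.61 ± 0.27, Tbx3 -0.56 ± 0.62 and the nuclear receptor gene Nr5a2 0.42 ± 0.37. Tbx3 read 9.89 and 9.83 with shRNA1, 9.26 and 9.34 with shRNA2 and 9.25 and 9.35 in shControl. Nr5a2 read 8.95 and 9.05, 9.43 and 9.42, and 9.33 and 9.53. Their large SEs thus carry the spread of the day 4 arrays. That spread enters the p-values of all genes in the fit, and not of this list alone.

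Markers of other cell types were given the same count. Primitive endoderm genes had a median of -0.01 over 18 genes, with 4 lower and 1 higher. The basement membrane collagen genes Col4a1 and Col4a2 had -0.66 ± 0.24 and -0.64 ± 0.21, the transcription factor gene Sox7 -0.43 ± 0.15 and the laminin gene Lamb1 0.39 ± 0.13. Trophoblast genes had a median of -0.05 over 16 genes, with Phlda2 and 1 other higher. Neural genes had a median of 0.01 over 14 genes, with Neurod1 (0.78 ± 0.23) and Tubb3 (0.44 ± 0.18) higher. The 13 mesendoderm genes had a median of -0.03 with 1 higher, and the 15 fibroblast genes 0.04 with 0 at the threshold. On all 4 hairpin arrays, 3 of the primitive endoderm, 4 of the trophoblast, 5 of the neural, 6 of the mesendoderm and 5 of the fibroblast genes lay below 3.79. The array medians of these 5 lists overlapped between the hairpins.

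Epithelial, germ line and cell cycle lists closed near 0 as well. Epithelial genes had a median of 0.00 over 25 genes with 3 higher, the tight junction gene Ocln (0.52 ± 0.14), the protease gene Prss8 (0.50 ± 0.15) and the desmosomal gene Pkp2 (0.45 ± 0.13). Krt8, a simple keratin, had 0.52 ± 0.27. Germ line genes had a median of 0.02 over 16 genes, 2 higher and 1 lower. Dmrt1, a transcription factor of the testis, read 7.55 and 7.69 with shRNA1, 8.25 and 8.24 with shRNA2 and 8.89 and 8.85 in shControl (0.62 ± 0.13, adjusted p = 0.221). Both hairpins lay below shControl, shRNA1 further. Tex19.1 had 0.62 ± 0.25 and Morc1, a transposon repressor, -0.38 ± 0.15, and both reached the unadjusted threshold. The helicase gene Ddx4 had 0.56 ± 0.28 and did not. G1 cyclins and CDK inhibitors had a median of 0.03 over 21 genes with 2 higher, the inhibitor genes Cdkn2a (0.53 ± 0.22) and Cdkn2b (0.35 ± 0.14). The cyclin gene Ccnd2 had -0.35 ± 0.16.

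**Figure D4:**
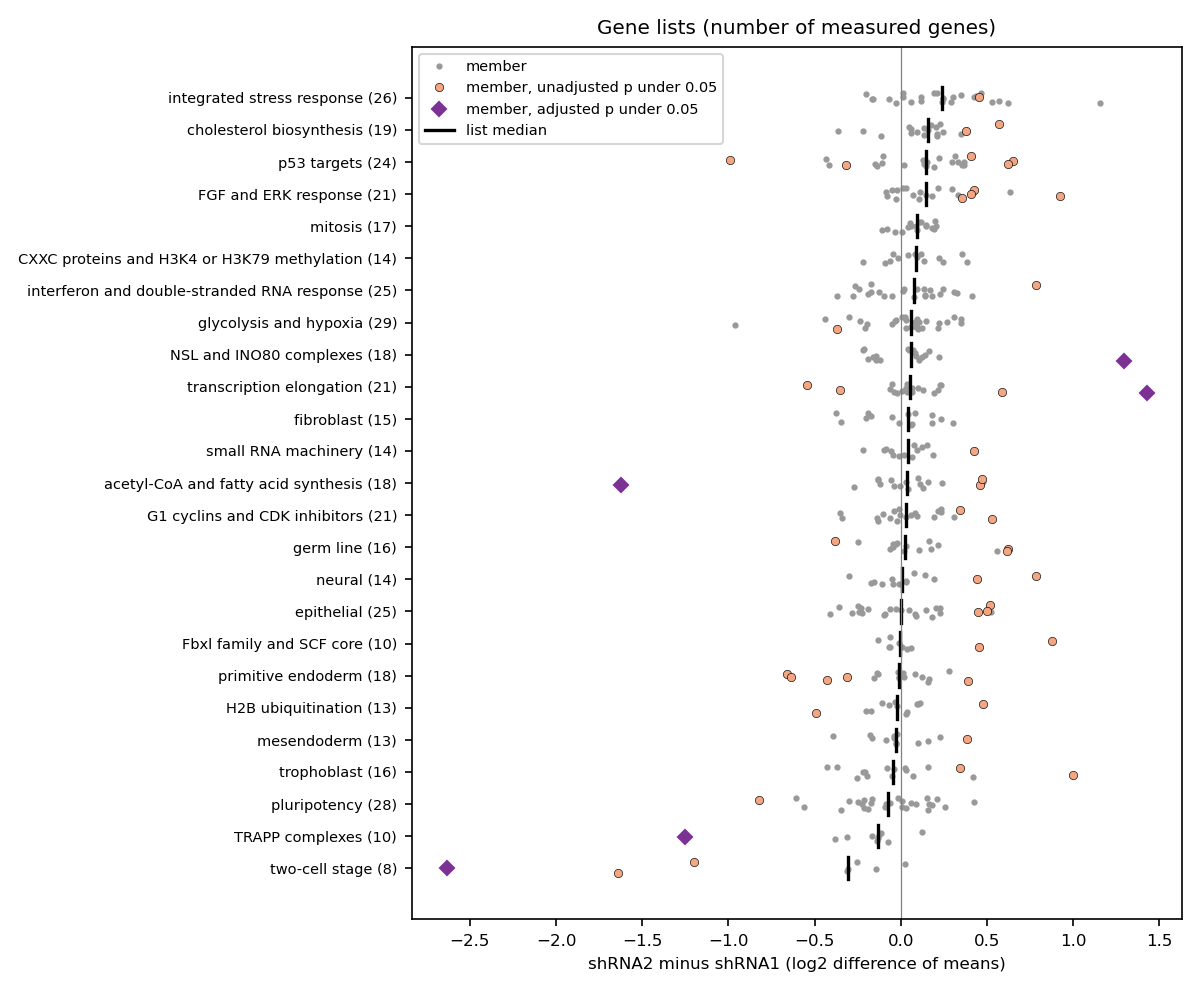
Differences between shRNA2 and shRNA1 means (log2, horizontal) of the measured members of 25 gene lists, ordered by median, with the number of measured genes in brackets. Black bars are list medians, from -0.31 for the two-cell stage to 0.24 for the integrated stress response. Purple diamonds are called genes and orange points those at an unadjusted p under 0.05.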

How the data were processed

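The values deposited by the authors are log2 expression values from RMA (background correction, quantile normalization and a summary of the probes of each probe set), per the submitters' processing notes. Which RMA version was used, and on which arrays together, is not given in the sources used here. The annotation of the platform paired 20393 of 22690 probe sets with 1 gene symbol and 691 with several, and left 1606 unnamed. By gene identifier, 20364 matched RefSeq (GRCm38.p6), used for names, chromosomes and promoter sequences. Each of 12394 genes was read from its brightest probe set by mean level over all 8 arrays. A mean was fitted for each of 4 groups in limma 3.58.1 under R 4.3.3 with lmFit and eBayes (residual degrees of freedom 4), and shRNA2 minus shRNA1 was tested. SE is the moderated standard error. Genes whose Benjamini-Hochberg adjusted p over all genes was under 0.05 are the called ones. The model was tested on simulated data.

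The members and gene lists were chosen with earlier results of these data known. Named were the called genes and the 8 in each direction with the next smallest p that were not dim with both hairpins. Also named were the members with the largest difference in each list (4 at most), and Fbxl20. Fbxl21 and Fbxl22 were to be described too but were not among the genes tested. Called genes with Gm symbols, genes that differed at least 2-fold, Rnf20, Pou5f1, Nanog and Sox2 were added after their values were seen. So were Fosl1, Egr2, Ei24 and Fas. The number of arrays limits the precision.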

Additional observations from a re-analysis of the deposited data

How the results depend on the processing

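The count of 13 called genes lay between 9 and 18 with every probe set tested, the mean of probe sets, the dimmest 30% of genes left out, eBayes with trend and robust settings, the 4 hairpin arrays alone, repeated quantile normalization or centring of arrays. It was 37 with the 6 undifferentiated arrays, 176 with array weights and 2 with a minimum change of 1.5-fold. Leaving out either day 4 array gave the same fit as the 6 undifferentiated arrays, since 1 array alone adds nothing to the spread. The count also moved when other single arrays were left out. The cause of the other shifts was not tested. With the replicate block, the replicate number of the titles as a term, it was 8, all among the 13, and Cacna2d2, Calml4, Cgref1, Gm4802 and Trappc10 were lost. The differences of replicate 2 minus 1 correlated across genes with r = 0.50 between the hairpins, and 0.26 and 0.23 between shControl and shRNA1 or shRNA2, but the labels do not say that the number marks a shared culture or day. Leaving out single arrays turned the sign of Fbxl20 (-0.16 to 0.044), Ndrg1 (-2.12 to 0.20), Rnf20 (-0.13 to 0.19), Pou5f1 (-0.0020 to 0.066), Nanog (-0.066 to 0.077) and Sox2 (-0.16 to 0.18), none of them called. Nanog was also -0.010 with repeated quantile normalization and -0.0027 with centring, and Sox2 was -0.037 with the former. The median of the epithelial, glycolysis, mitosis, mesendoderm, neural, trophoblast, primitive endoderm, interferon, small RNA, H2B and Fbxl lists changed sign under at least 1 alternative. Background correction could not be varied from RMA values.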

Other observations

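Outside the genes with a symbol of their own, 2246 probe sets had several gene symbols or none in the platform annotation, array controls left out. With these added to the fit, 22639 probe sets in all, 2 of them were lower and 0 higher with shRNA2 at a limma adjusted p under 0.05, and 79 were at an unadjusted p under 0.05. Their differences ran from -3.23 to 1.19 on the log2 scale.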
